A study of Mus musculus with 36 samples.

Results

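The flow response of corneal fibroblasts was set against the flow responses of tendon and skin fibroblasts, gene by gene. A response is the mean log2 value under flow minus the mean under static medium in 1 tissue. The quantity described here, called the response difference, is the corneal response minus the mean of the tendon and skin responses, and a gene is said to differ by that amount. It uses every sample of the series, which is 18 of 18 libraries and 36 of 36 arrays, and covers all 18193 measured genes.

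The cells were primary fibroblasts of CD1 mouse fetuses taken 19 days after conception. They had gone through 5 population doublings before seeding, and the glass under them was coated with gelatin. For 14 h they were kept in static medium or under laminar flow with a shear stress of 0.1 dyn/cm2. Cornea static, cornea flow, tendon static, tendon flow, skin static and skin flow are the 6 groups, with 3 libraries each, and a library is 1 RNA sample read on both chips of an Affymetrix mouse array set. No genotype or drug differs between groups, and all cells share the gelatin coat, the passage and the fetal stage. Monolayers under flowing medium model fluid shear, and they lack the matrix and the tension of the tissues.

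Corneal stromal fibroblasts, called keratocytes in the tissue, derive largely from the neural crest, whereas limb tendon cells and much of the dermis derive from mesoderm. They keep part of this origin in culture as patterns of homeobox genes. Fluid shear is sensed at the cell surface, by ion channels, integrins and primary cilia, and is known to induce immediate early genes within the first hours. A well-known later arm in sheared endothelial cells is the NRF2 pathway, in which a transcription factor is released from its inhibitor KEAP1 and turns on genes of glutathione synthesis and thiol repair.

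No gene had a response difference that passed the test. With limma and Benjamini-Hochberg adjustment over 18193 genes, 0 genes (0%) reached an adjusted p below 0.05, and the smallest adjusted p was 1. At an unadjusted p below 0.05 there were 259 genes, which is 1.42% of those tested. The corneal response was the higher in 147 of them (0.808%) and the lower in 112 (0.616%). Each tissue taken singly gave the same count of 0, with 204 genes (1.12%) at an unadjusted p below 0.05 for cornea against tendon and 223 (1.23%) for cornea against skin. The joint test that the corneal response differs from either tissue called 0 genes as well, with 142 (0.781%) at an unadjusted p below 0.05. Of the 259 genes, 175 had a highest group mean at or above the 25th percentile of all genes, a log2 value of 6.17, and 48 carry clone or predicted names. Without corneal flow 3 the 259 became 668, the 204 became 465, the 223 became 567 and the 142 became 328. The count for cornea against tendon was 564 without tendon static 2, with 297 in the joint test, and that for cornea against skin was 417 without skin static 3 and 146 without skin static 1. Adjusted calls were 0 in all of these fits.

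The precision sets what this count can show. The median standard error of a response difference was 0.176 on the log2 scale, and the median 95% confidence interval reached 0.373 to either side. The interval lay within −1 to 1 for 17246 genes (94.8%), so for these genes a difference of more than 1 log2 unit was outside the interval. The median response difference was 0.004, and 95% of genes lay between −0.353 and 0.281. The responses themselves spread alike, with a standard deviation over genes of 0.199 in cornea, 0.192 in tendon and 0.162 in skin. The 3 flow libraries lay wholly above or below the 3 static ones for 10.4% of genes in cornea, 8.04% in tendon and 7.91% in skin.

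The layout of the arrays bears on each of these values. Tendon and skin have 1 static and 1 flow library in each of 3 hybridisation runs, read from the hybridisation times in the scan records. The corneal static libraries all lie in run 2, whereas corneal flow 1 lies in run 1, corneal flow 2 in run 3 and corneal flow 3 in run 2. Run 1 also has a chip lot of its own on each chip. Its libraries are called scan batch 1 here, and all others scan batch 2. These batches were split by chip lot, and no time of scanning or scanner was used. In cornea, part of the run cannot be told apart from flow, which is not so in tendon and skin. The scan records note a date beside most samples, and by it corneal static 1 belongs with flow 2 and corneal static 3 with flow 3. With that date as a fixed block, corneal static 2 and corneal flow 1 have no partner and drop out. That fit called 0 genes, with 776 at an unadjusted p below 0.05 and a smallest adjusted p of 0.254. As a random block, the noted date had a correlation of 0.5 on chip A and 0.24 on chip B. The main fit leaves the date out, so its standard errors include variation that libraries of 1 date share. With no difference in any gene, a share of 0.05 would be expected below that level, and the main fit had 1.42%. Whether the date accounts for this was not tested. With the 3 runs as a block the fit also called 0 genes, with 450 at an unadjusted p below 0.05. Signals of 3′ and 5′ control probe sets are a sign of RNA quality. Their 3′ minus 5′ response difference was −0.228 for beta-actin and −0.262 for Gapdh on chip A, and −0.201 and −0.026 on chip B. Over 8 pairs of a static and a flow library, without corneal static 2 and corneal flow 1, it was −0.156 for beta-actin and −0.378 for Gapdh on chip A. On chip B the pairs gave −0.132 and −0.118. For these values of the pairs, a two-sided exact permutation test gave p = 0.679 and 0.0714 on chip A and 0.643 and 0.643 on chip B. The smallest p that this test allows is 0.0357. With the beta-actin value of each library as a covariate, 0 genes were called and 299 had an unadjusted p below 0.05.

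Markers of the tissues were set against the labels. The mean level of 32 measured corneal and anterior eye genes was 7.15 to 7.33 in the 6 corneal libraries and 6.52 to 6.82 in the other 12. Alx1, a homeobox gene of the facial neural crest, had a static mean of 7.62 in cornea, 4.69 in tendon and 4.80 in skin. Kera, which encodes the keratocyte proteoglycan keratocan, was dim in every group, at means of 4.62 to 4.94. The 15 fibroblast markers averaged 11.04 to 11.72 per library and the 19 epithelial ones 6.07 to 6.39. A free-text label of the tendon flow arrays says cornea, while their titles and scan records say tendon. On a scale of 431 genes where static cornea is 0 and static tendon is 1, those libraries scored 1.003, 0.9 and 0.976, and they were analysed as tendon. The mean level of 21 tendon genes was 7.65 to 8.02 in the tendon libraries, 6.98 to 7.54 in cornea and 7.45 to 7.73 in skin, so tendon lay above cornea and overlapped with skin. Among them Prg4, which encodes the lubricant lubricin, read 10.19 to 11.32 in tendon and 6.42 to 8.08 in the other libraries. Tnmd, a tendon surface protein, read means of 9.15 to 9.50 in all 6 groups, and Scx, a transcription factor of tendon precursors, was dim in tendon (5.60 static) and no higher than in cornea (6.03). Skin libraries had the highest mean of 29 dermal and limb genes, at 7.68 to 7.72 against 6.80 to 7.51 in the rest.

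Flow changed a set of genes in the average of the 3 tissues, and the corneal response to it was close in size to the others. In the average response 163 genes (0.896% of those tested) passed limma's adjusted p of 0.05, 115 of them higher under flow and 48 lower. All 3 responses had 1 sign in 163 of 163. The genes were chosen by the mean of these 3 responses, which favours 1 sign, so nothing is read from that count. With the noted date as a fixed block, without the unpaired corneal libraries, 1273 genes passed. Among the 115 the median response was 0.57 in cornea, 0.58 in tendon and 0.51 in skin, and their response differences ran from −0.53 to 0.92 with a median of 0.01. Among the 48 the medians were −0.53, −0.54 and −0.47, and the response differences ran from −0.62 to 0.79 with a median of −0.075. The confidence interval of the response difference lay within −1 to 1 for 140 of the 163 and spanned 0 for 151. The remaining 12 (7.36%) had an unadjusted p below 0.05, against 1.42% of all genes, and 5 did so without corneal static 1 or without corneal flow 1. The 12 became 6 within scan batch 2, 17 with the noted date as a fixed block and 20 with it as a random block. Both contrasts use 1 estimate of a gene's spread, so the 2 counts are not independent. Whether this bears on the share of 7.36% was not tested.

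**Figure D1:**
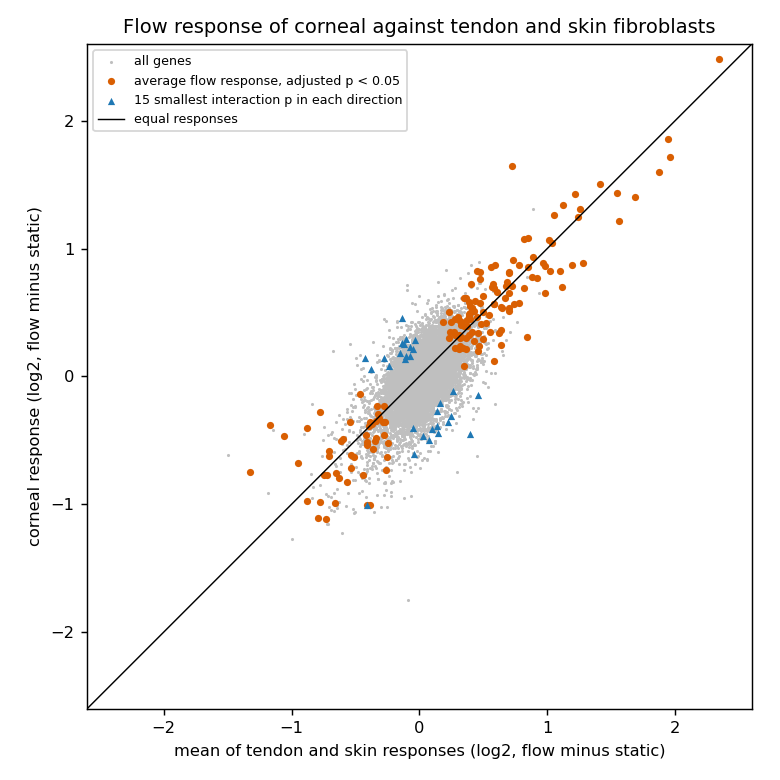
Corneal response (vertical axis, log2 flow minus static) against the mean of the tendon and skin responses (horizontal axis, same unit), 1 point per gene for 18193 genes, with the line of equal responses. Orange points are the 163 genes of the average response, which lie along the line, and blue triangles are the 15 genes with the smallest unadjusted p in each direction, which lie near the centre with sizes of 0.24 to 0.85.

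The 12 genes with the smallest p in the average response were all higher under flow, and in each of them the flow libraries lay above the static ones in all 3 tissues. Flow and static libraries did not overlap, in either direction, for 10.4% of all genes in cornea, 8.04% in tendon and 7.91% in skin. The same values chose the 12 genes, so nothing is read from their lack of overlap. Srxn1, which encodes sulfiredoxin, the enzyme that repairs over-oxidised peroxiredoxins, read 8.41, 8.61 and 8.57 in static cornea and 10.58, 10.97 and 9.61 under flow. It read 8.76, 8.59 and 8.48 in static tendon and 11.19, 10.57 and 10.42 under flow, and 9.10, 8.88 and 9.17 in static skin and 10.98, 10.18 and 11.31 under flow. Corneal flow 3 was the lowest of the 9 flow libraries. The responses were 1.86, 2.12 and 1.78, and the response difference of −0.09 had an interval of −0.88 to 0.70.

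Gclm, the modifier subunit of the enzyme that starts glutathione synthesis, read 10.10, 9.68 and 10.06 in static cornea and 11.68, 12.46 and 10.85 under flow. In tendon the static values were 9.32, 9.32 and 8.96 and the flow values 11.48, 11.50 and 10.85, and in skin 9.66, 9.86 and 9.78 against 11.37, 11.47 and 11.99. Corneal flow 3 was again low, and corneal flow 2 was the highest library of all. The response difference was −0.24 (interval −1.02 to 0.53), and it became 0.16 without corneal flow 3, as that of Srxn1 became 0.30. Gclc, the catalytic subunit of the same enzyme, had responses of 1.34 in cornea, 1.06 in tendon and 1.18 in skin, and a response difference of 0.22 (−0.31 to 0.75).

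Gsta4 encodes a glutathione transferase that clears lipid aldehydes. Its responses were 1.21 in cornea, 1.63 in tendon and 1.497 in skin, from a higher static level in cornea (means 11.70 against 10.92 and 10.76), and its response difference was −0.35 (−0.90 to 0.21). Angptl4, a secreted inhibitor of lipoprotein lipase, had responses of 1.60, 1.96 and 1.79 and a response difference of −0.28 (−1.05 to 0.50). Procr, the receptor of activated protein C, had responses of 1.43, 1.74 and 1.34 and a response difference of −0.11 (−0.84 to 0.61). Hsph1, a large heat shock protein, differed by −0.15, Serpinb1b, a protease inhibitor, by −0.28, Abcb6, a porphyrin transporter, by 0.24, Cbr3, a carbonyl reductase, by 0.26 and Slc48a1, a haem transporter, by 0.05. Of these 12 genes 1 had an unadjusted p below 0.05. It was Stxbp5, the SNARE regulator tomosyn, whose responses were 0.36 in cornea, 0.56 in tendon and 0.72 in skin (response difference −0.28, unadjusted p = 0.039, limma adjusted p = 1).

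**Figure D2:**
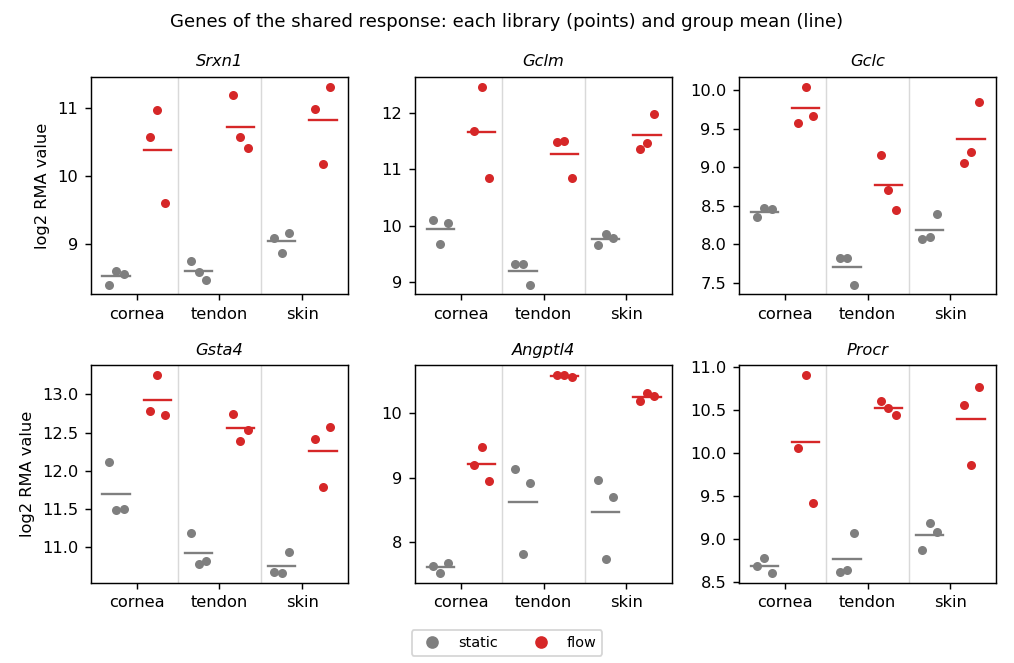
Log2 RMA values of 6 genes of the average response in each of 18 libraries (points; grey static, red flow) with group means (lines), by tissue. Flow points lie above static points in every tissue for all 6, which their choice by the average response favours. The responses run from 1.06 for Gclc in tendon to 2.12 for Srxn1 in tendon.

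The NRF2 list was described in the same way. Of its 33 genes 29 were measured, and 21 passed the test of the average response, against 0.896% of all genes. All 21 were higher under flow. The list was chosen with earlier results of these data known, so nothing is read from that count. Over the 29 genes the median response was 0.87 in cornea, 0.80 in tendon and 0.71 in skin. The response difference was positive for 19 and negative for 10, its median was 0.05 against 0.004 over all genes, and 0 of 29 reached an unadjusted p below 0.05. Hmox1, haem oxygenase, named here after its values were seen, had the largest response in cornea of the list, with 2.48 against 2.33 in tendon and 2.36 in skin. The list's median depended on the libraries, since it was 0.20 without corneal flow 3 and −0.28 in run 2 alone, where corneal flow 3 is the only corneal flow library.

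Promoter sequence was examined because these genes moved together. The core of the antioxidant response element, to which NRF2 binds, was searched as TGAC and GC with any 3 bases between them, on both strands, in the 250 bases upstream of each gene's start in RefSeq promoters of build GRCm38.p6. It was present in 3338 of 32851 promoters (10.2%). Of the 21 genes, 16 had a promoter in the table, and 2 of these (12.5%) held the motif, a share near that of all promoters. Both stretches are shown on the gene's strand with 20 bases to either side, the match in capitals.
Gclm, chr3:122245403-122245451, plus strand, motif on the opposite strand: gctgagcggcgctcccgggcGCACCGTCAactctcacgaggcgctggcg
Gsta3, chr1:21240444-21240492, plus strand, motif on the gene's strand: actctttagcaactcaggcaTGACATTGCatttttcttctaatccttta
The match starts 134 bases upstream of the start in Gclm and 121 in Gsta3. Gsta3, a glutathione transferase, had responses of 0.72 in cornea, 0.44 in tendon and 0.36 in skin and a response difference of 0.32 (unadjusted p = 0.103).

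Of the 12 shared genes with an unadjusted p below 0.05, the corneal response, taken with its sign, was the lower in 10 and the higher in 2. In the average response 6 of the 12 rose under flow and 6 fell. The corneal response was smaller in size than the mean of the other tissues in 6 of the 12. Hspa1a, which encodes the inducible chaperone HSP70, was one of the 2 with a higher corneal response. It read 7.80, 8.01 and 7.93 in static cornea and 9.15, 10.59 and 8.93 under flow. In tendon it read 7.74, 7.86 and 7.62 against 8.40, 8.33 and 8.25, and in skin 7.50, 7.62 and 7.41 against 8.07, 8.26 and 8.80. All 3 corneal flow libraries lay above every other library, and corneal flow 2 stood apart. The response difference was 0.92 ± 0.36 (SE; unadjusted p = 0.0224, limma adjusted p = 1), 0.40 without corneal flow 2 and 0.01 within run 2. Its near-identical copy Hspa1b, which can share probes with it, differed by 0.25.

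Ptx3 was the other. It encodes a secreted pentraxin of innate immunity and of the hyaluronan matrix, and it fell in the average response. Corneal values were 10.85, 11.03 and 10.58 static and 10.88, 10.16 and 10.29 under flow, so the groups overlapped. In tendon they were 11.25, 11.12 and 11.14 against 10.13, 9.86 and 9.81, and in skin 10.90, 9.90 and 10.35 against 9.94, 8.68 and 9.25. Tendon did not overlap and skin overlapped by 1 flow library. The responses were −0.38, −1.24 and −1.09, and the response difference was 0.79 ± 0.34 (unadjusted p = 0.0352), between 0.57 and 1.03 over the other settings. With the noted date as a block, without the unpaired corneal libraries, it was 0.68 (limma unadjusted p = 0.000633, adjusted p = 0.781).

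Ahsa2, a relative of a co-chaperone of HSP90, had responses of 0.25 in cornea, 0.83 in tendon and 0.45 in skin. Its response difference was −0.40 ± 0.14 (unadjusted p = 0.0107). The 18 measured heat shock chaperones had a median response difference of 0.02, with 11 positive and 7 negative, and Ahsa2 and Hspa1a were the 2 at an unadjusted p below 0.05, in opposite directions. Cenpp, a centromere protein, is described with the genes of cell division. The other 8, which apart from Stxbp5 are named after their values were seen, were Stxbp5, Ikbkg, Fbxl7, Adgrl2, Rbm5, Tpd52 and a pair with clone names, with response differences between −0.27 and −0.62.

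Among all genes, the 15 smallest unadjusted p-values with a lower corneal response ran from 0.000574 to 0.00862, with differences of 0.35 to 0.85 in size. In 12 of these 15 the corneal response had the other sign than both tendon and skin, and in 11 the corneal flow and static libraries did not overlap, against 10.4% of all genes. These values chose the genes, so nothing is read from either count. Acap2 led. It encodes a protein that switches off the small GTPase ARF6, which controls membrane recycling at the cell surface. It read 9.70, 9.73 and 9.47 in static cornea and 9.38, 9.0 and 9.44 under flow. Tendon values were 9.56, 9.39 and 9.35 against 9.47, 9.68 and 9.61, and in skin 9.36, 9.40 and 9.31 against 9.63, 9.58 and 9.75. Corneal flow libraries lay below all corneal static ones, skin flow lay above all skin static, and tendon overlapped. Acap2 differed by −0.58 (interval −0.87 to −0.29, unadjusted p = 0.000574, limma adjusted p = 1), and its unadjusted p was below 0.05 in all 32 other settings.

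Myct1, a gene first described as a target of MYC and known for its expression in endothelium, read 7.06, 6.92 and 7.05 in static cornea and 6.39, 6.34 and 6.48 under flow. All tendon and skin libraries lay between 5.98 and 6.44, with responses of −0.07 and −0.02. The level thus differed between static cornea and the other groups, and corneal flow lay near the upper end of the others. Myct1 differed by −0.56 (−0.86 to −0.26, unadjusted p = 0.00103). A brighter probe set on chip B, with a mean of 7.37, gave −0.15 (unadjusted p = 0.212), and a dim one gave −0.41 (unadjusted p = 0.0352).

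Nfat5, the transcription factor of the response to high salt, read 9.15, 9.13 and 9.15 in static cornea and 8.85, 8.62 and 9.02 under flow. In tendon it read 8.35, 8.07 and 8.32 against 8.66, 8.68 and 8.34, and in skin 8.79, 9.08 and 8.90 against 9.26, 8.92 and 9.13. The corneal groups did not overlap and the others did. Nfat5 differed by −0.56 (−0.90 to −0.22, unadjusted p = 0.00329), and −0.25 within run 2. Its other probe sets, dimmer at means of 4.48 to 6.19, gave −0.11 to 0 (limma unadjusted p from 0.489 to 0.972). Phc3, a subunit of a Polycomb repressive complex, had responses of −0.15 in cornea, 0.56 in tendon and 0.36 in skin, and a response difference of −0.60 (unadjusted p = 0.00345).

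Adgrg2, an adhesion G protein-coupled receptor, had the largest size of the 15. It read 8.87, 9.44 and 9.54 in static cornea and 8.34, 9.28 and 8.87 under flow, with overlap. Tendon values were 7.67, 8.10 and 8.05 static against 8.01, 8.60 and 8.41 under flow, and skin values 6.42, 6.78 and 6.90 against 6.92, 7.38 and 6.99. Tendon overlapped and skin did not. The response difference was −0.85 ± 0.28 (unadjusted p = 0.00862) and −0.52 with the noted date as a block. Zbtb41, a zinc finger gene, differed by −0.59, and by −0.08 within run 2. Taf1, the largest subunit of the general factor TFIID, differed by −0.53, Vps13b, a lipid transfer protein of the Golgi, by −0.51, and Spidr, a scaffold of homologous recombination, by −0.41. Fndc3c1, Fam122b, Ylpm1, Ccdc69 and Wdr5b differed by −0.35 to −0.58.

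Where the corneal response was the higher, the 15 smallest unadjusted p-values ran from 0.00312 to 0.0173, with differences of 0.24 to 0.59. In 13 of the 15 the corneal response had the other sign than both other tissues, which the choice of genes again favours. Ier3, an immediate early gene that modulates survival signalling, was the brightest of them. It read 12.31, 12.47 and 12.59 in static cornea and 12.86, 12.96 and 12.91 under flow, so that the groups did not overlap. Tendon values were 12.37, 12.12 and 11.86 against 12.25, 11.94 and 11.70, and in skin 12.46, 11.93 and 12.29 against 12.34, 11.77 and 12.23, with overlap in both. Ier3 differed by 0.59 (0.12 to 1.06, unadjusted p = 0.0167), 0.57 within run 2, and 0.50 to 0.68 over all other settings.

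Rab8b, a small GTPase of transport to the plasma membrane, read 10.47, 10.30 and 10.11 in static cornea and 10.23, 10.80 and 10.30 under flow, with overlap. In tendon it read 10.35, 10.61 and 10.35 against 9.85, 9.96 and 10.01, and in skin 9.93, 9.80 and 9.89 against 9.56, 9.64 and 9.35, with no overlap in either. Rab8b differed by 0.57 (0.19 to 0.95, unadjusted p = 0.0054), while a second, dimmer probe set of Rab8b gave −0.25 (unadjusted p = 0.153). Rab30, a small GTPase of the Golgi, differed by 0.41, with an unadjusted p below 0.05 in all 32 other settings, and its second probe set gave 0.01. Pcp4l1 differed by 0.43, mostly against tendon, where the response was −0.67 compared with −0.09 in skin. Zswim6, Mroh4, Mzb1, Wnk3, Mctp2, Krt20, Fam24b, Krt78, Zfp572, Carmil2 and Ssmem1 differed by 0.24 to 0.42, and the largest corneal response among them was 0.29. Of these, Zswim6 has a brighter probe set on chip B, with a mean of 9.06, whose response difference had the other sign (−0.38, unadjusted p = 0.22, against 0.42). The brighter one of Carmil2, with a mean of 7.92, gave 0.09 (unadjusted p = 0.45). Krt78 and Krt20 encode epithelial keratins, and the 19 epithelial markers had a median response difference of 0 with 0 at an unadjusted p below 0.05.

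**Figure D3:**
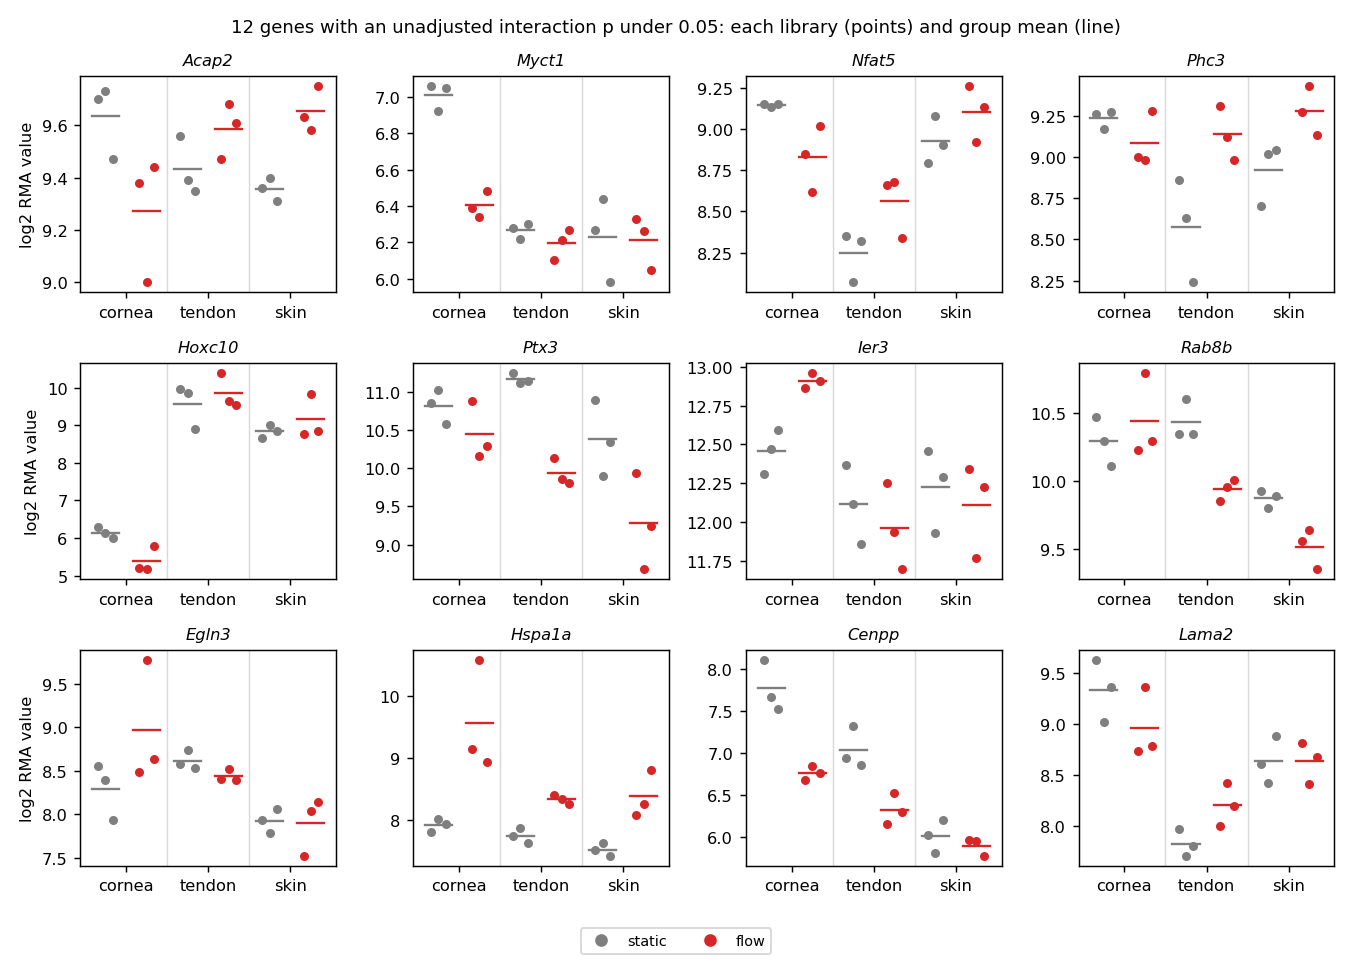
Log2 RMA values of 12 genes with an unadjusted p below 0.05 for the response difference, in each of 18 libraries (points; grey static, red flow) with group means (lines); the vertical scale differs between panels. Acap2, Myct1 and Nfat5 are lower under flow in cornea without overlap, Ier3 is higher, and in Egln3 and Hspa1a 1 corneal flow library lies far above the other 2.

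In 3 genes the response difference was above 1 in size, and they are named after their values were seen. Elobl read 9.71, 11.85 and 11.49 in static cornea and 9.69, 7.69 and 10.42 under flow, while all tendon and skin libraries lay between 6.88 and 7.45. Its response difference was −1.66 ± 0.65 (unadjusted p = 0.0217), and it led the fit with the noted date as a block (−1.45, unadjusted p = 1.4e-05, adjusted p = 0.254). Without corneal flow 2 it was −0.87 and within run 2 −0.48. Malat1, a nuclear long noncoding RNA, differed by −1.07 ± 1.12 (unadjusted p = 0.351), and its libraries of scan batch 1 read 6.61 to 8.07 against 8.92 to 10.23 in the rest. Within scan batch 2 its difference was −0.16.

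The gene left of the 3 was Hoxc10, a posterior homeobox gene of the limb and trunk. It read 6.28, 6.13 and 6.01 in static cornea and 5.21, 5.17 and 5.79 under flow, without overlap. Tendon values were 9.96, 9.86 and 8.91 against 10.40, 9.65 and 9.53, and in skin 8.67, 9.01 and 8.86 against 8.78, 9.83 and 8.86. Corneal levels lay below every tendon and skin library, and both of those tissues overlapped between states. Hoxc10 differed by −1.04 ± 0.37 (unadjusted p = 0.0121, limma adjusted p = 1). Over the other settings it ran from −1.24 to −0.65. The corneal means of 6.14 static and 5.39 under flow lie below 6.17, the level under which a gene is counted as dim here, and of the corneal libraries only static 1 lies above it. Alx1, which is on the list of corneal and anterior eye genes, differed by −0.67 ± 0.28 (unadjusted p = 0.0289), with a corneal response of −0.66 and dim means in tendon and skin, but by 0.17 within run 2.

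Gene lists were compared by their counts and medians. Members of a list were read on the same libraries, so the signs of its genes are not independent, and nothing is read from a count of signs. The 32 lists of pathways held 749 measured genes, of which 10 (1.34%) had an unadjusted p below 0.05, close to the 1.42% of all genes. In 25 of the 32 lists there was none. The median response difference lay within −0.10 to 0.10 in 30 of 32 lists, and the exceptions were cell division at −0.26 and S phase and DNA replication at −0.12.

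Cell division had the lowest median. Of 24 measured genes 23 had a lower corneal response, with medians over the list of −0.64 in cornea, −0.45 in tendon and −0.30 in skin, and 0 of 24 reached an unadjusted p below 0.05. Cenpf, a kinetochore protein, had responses of −1.02, −0.34 and −0.16, and a response difference of −0.77 ± 0.59 (unadjusted p = 0.212). Kif11, the mitotic motor that separates spindle poles, differed by −0.29 ± 0.27. The members were read on the same libraries, so 23 of 24 is not a count of independent genes. The median was 0.12 without corneal static 1 and −0.59 without corneal static 3, and −0.14 with the noted date as a block. In bulk cultures fewer dividing cells and less RNA per cell cannot be told apart.

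Cenpp, which is not on that list, fell in the average response. It read 8.11, 7.67 and 7.52 in static cornea and 6.67, 6.84 and 6.76 under flow, without overlap. In tendon it read 6.94, 7.32 and 6.85 against 6.15, 6.52 and 6.30, also without overlap, and in skin 6.02, 5.80 and 6.20 against 5.96, 5.95 and 5.77. Skin had the lowest levels and a response of −0.11, tendon −0.71 and cornea −1.01. The response difference was −0.60 ± 0.19 (unadjusted p = 0.00583). Against tendon alone it was −0.29 (unadjusted p = 0.194), and against skin alone −0.90 (unadjusted p = 0.000749). For S phase genes the median response difference was −0.12, with 16 of 23 lower, and 0.09 within scan batch 2. It was −0.34 with array weights and ran from −0.33 to 0.06 without 1 library. Among them Pcna, the sliding clamp of DNA polymerase, differed by −0.56 ± 0.40 and Gins2, of the replicative helicase, by −0.44 ± 0.26.

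The 27 immediate early genes had a median of 0.09, with 23 higher in cornea, and medians of −0.06, −0.16 and −0.14 in the 3 responses. Ier3 and Jund were the members at an unadjusted p below 0.05. Jund, a subunit of the transcription factor AP-1, had responses of 0.40, −0.03 and −0.14 and a response difference of 0.49 ± 0.21 (unadjusted p = 0.0303), or 0.29 (unadjusted p = 0.0783) with the runs as a block. Within scan batch 2 the list's median was −0.04, and without 1 library it ran from −0.02 to 0.25.

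Among hypoxia and glycolysis genes, 17 of 25 were positive and the median was 0.05. Egln3, an oxygen sensor that marks HIF for destruction and is itself a HIF target, read 8.56, 8.39 and 7.93 in static cornea and 8.49, 9.78 and 8.64 under flow. Its tendon and skin responses were −0.17 and −0.02. Corneal flow 2 stood apart, corneal flow 1 lay within the static range and corneal flow 3 just above it. Egln3 differed by 0.77 ± 0.32 (unadjusted p = 0.0275), 0.37 without corneal flow 2, and 1.06 (unadjusted p = 9.28e-05, adjusted p = 0.646) with the noted date as a block. A dimmer probe set gave 0.35 (unadjusted p = 0.248).

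For the extracellular matrix, 19 of 23 collagens had a lower corneal response, with a median of −0.10 that ranged from −0.19 to −0.07 over the other settings, and 0 of 23 had an unadjusted p below 0.05. Col6a3, of the beaded filaments around cells, differed by −0.29 ± 0.18 and Col7a1, of anchoring fibrils, by −0.41 ± 0.27. Lama2, the laminin alpha 2 chain of basement membranes, read 9.63, 9.02 and 9.36 in static cornea and 8.74, 9.36 and 8.79 under flow, with responses of −0.37 in cornea, 0.37 in tendon and −0.01 in skin. Its response difference was −0.56 ± 0.23 (unadjusted p = 0.0288), which was −0.75 against tendon and −0.37 against skin. Itga6, a laminin receptor subunit, differed by −0.57 ± 0.27 (unadjusted p = 0.0512). Matricellular genes had a median of −0.09, with 15 of 21 lower, and matrix proteases one of −0.06, where Adamts1, which cuts proteoglycans, differed by −0.47 ± 0.33.

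Lists tied to force sensing had medians near 0. The 26 contractile genes had a median of 0.04 and an extreme of 0.26, the 22 YAP and TAZ targets a median of −0.01, and the 20 channels and connexins a median of −0.01 with all values between −0.23 and 0.23. In each of these 3 lists 0 genes had an unadjusted p below 0.05. Des, desmin, differed by 0.14, Actn1, an actin crosslinker, by −0.15, and Amotl1, a YAP-binding protein, by −0.53 ± 0.39. In the TGF-beta family the median was −0.08, with 21 of 32 lower, and Bambi, a decoy receptor, differed by −0.39 ± 0.22. In Wnt signalling it was 0.04, and in the IGF, FGF, HGF and PDGF group −0.01, where Spry4, an inhibitor of receptor kinase signalling, differed by 0.44 ± 0.24.

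Of inflammatory genes, 17 of 28 were positive, with a median of 0.10 (0.01 to 0.37 without 1 library, 0.43 within run 2), and Ptx3 and Tnfaip3 had an unadjusted p below 0.05 in opposite directions. Tnfaip3, the inhibitor A20 of NF-kappaB signalling, had responses of −0.35, 0.07 and −0.13 and differed by −0.32 ± 0.13 (unadjusted p = 0.0263). A brighter probe set of Tnfaip3 on chip B, with a mean of 8.87, gave 0.01 (unadjusted p = 0.99), with an average response of −0.74. Interferon-stimulated genes had a median of 0.07, with Tap1, a peptide transporter, at 0.32 ± 0.17. Of 31 proteasome subunits 23 were positive, with a median of 0.09, medians of 0.16, 0.06 and 0.06 in the 3 responses, and a range of 0.03 to 0.16 over the other settings. The p53 list had a median of 0.09 with 14 of 18 positive, and ER folding genes one of 0.08 with 13 of 19 positive. Without 1 library the p53 median ran from −0.01 to 0.23 and the ER median from −0.09 to 0.19, and within run 2 they were 0.31 and 0.36. The interferon, proteasome, p53 and ER lists each held 0 genes at an unadjusted p below 0.05.

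**Figure D4:**
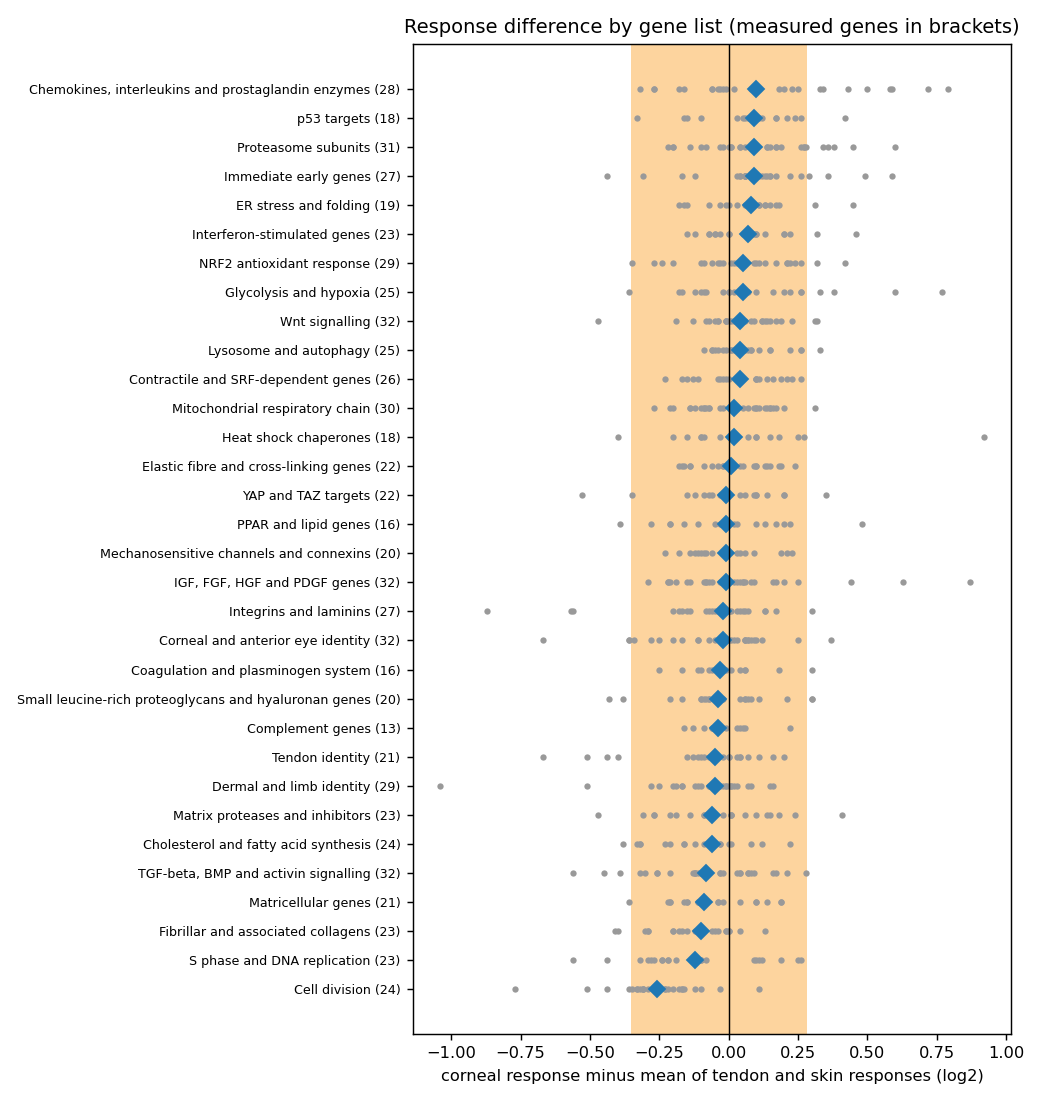
Response difference (horizontal axis, log2) of the members (grey points) and the median (blue diamond) of 32 gene lists, with the number of measured genes in brackets. The shaded band holds 95% of all genes, from −0.353 to 0.281, and every median lies inside it, from −0.26 for cell division to 0.10 for the inflammatory list.

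No gene on the cell type marker lists, which include fibroblasts, had an unadjusted p below 0.05, against 1.42% of all genes. Krt78, Krt20 and Myct1, described above, are not on these lists. The 10 marker lists held 133 measured genes, of which 0 passed that level, and their medians ran from −0.12 for corneal endothelium to 0.05 for melanocytes. The corneal endothelial list, with 7 measured genes, stood at 8.93 to 9.06 in static cornea and 8.78 to 8.98 under flow, above the other tissues at 8.19 to 8.60. The leukocyte list stayed between 6.05 and 6.39 in every library.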

How the data were processed

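The authors deposited log2 values. RMA (background correction, quantile normalisation and probe summary) made them, per the submitters' processing notes. The version is not given in the sources used here, and each chip is its own table. Chip A carries 22690 probe sets and chip B 22575. Probe sets with 1 symbol were used, 1 per gene: names ending in _x_at last, chip A before B, then the highest mean, which gave 18193 genes (12388 and 5805).

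Group means of all 6 groups were fitted per chip with limma 3.58.1 (R 4.3.3) without covariates, with eBayes over all non-control probe sets (12 residual degrees of freedom, prior 4.05 and 4.29), and p-values were adjusted over 18193 genes by Benjamini-Hochberg. The script was tested on simulated data. Whether replicates stem from different fetuses or litters is not stated in the labels, and the p-values then cover only how these libraries vary, which may be technical. The number of arrays limits the precision. RNA input was 100 ng per library.

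The genes named are the 15 smallest unadjusted p in each direction, 12 of the average response, 8 with opposite responses, all of them among the former, and up to 2 per list, above the 25th percentile of the highest group mean and without clone names. The contrast and the lists were chosen with earlier results of these data known.

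Static and flow libraries that share a noted date in the scan records deviated together within a tissue (r 0.38 to 0.76 in 6 pairs). Tendon 1 and skin 1 carry no date in either state and were paired as the undated libraries of their tissue, also in the date block (r 0.62 and 0.49). Replicate numbers follow these pairs in tendon and skin but not in cornea (r −0.22, −0.43 and 0.41), so they were not taken as pairs. Skin static 2 carries a note on concentration and was kept. Alternatives were scan batch, hybridisation run, noted date, replicate block, array weights, probe choice, scaling, a dim filter and leaving out each library. The run fits were added after seeing the data.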

Additional observations from a re-analysis of the deposited data

How the results depend on the processing

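The counts for the corneal response difference, for cornea against tendon, for cornea against skin and for the joint test stayed at 0 under every setting run, and without each of the 18 libraries in turn (0 to 0). The smallest adjusted p over those settings was 0.0853, with all 45137 probe sets tested, where 1014 had an unadjusted p below 0.05. Genes at an unadjusted p below 0.05 numbered 259 in the main fit. They were 540 with the replicate block within each tissue, 776 with the noted date as a fixed block and 689 as a random block. Array weights gave 807 and runs as a block 450. The count was 668 without corneal flow 3 and 190 without corneal flow 1. With dim genes left out it was 148, where 13645 genes were tested and not 18193. The average response, with 163 genes, gave 32 in scan batch 2 only, 580 with the replicate block, 1273 and 1166 with the noted date as a fixed and a random block, 426 with array weights, and 0 in run 2 only (1038 at an unadjusted p below 0.05), and 98 to 178 without 1 library, with 98 without skin flow 3, 101 without skin static 1, 103 without tendon flow 1 and 106 without skin flow 1. The cause was not tested.

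Of the 30 genes with the smallest p, 26 kept an unadjusted p below 0.05 without each library in turn. Their choice by p on these same libraries favours this, also for Acap2 and Rab30 over the 32 settings. Of the 30, 1 turned sign: Carmil2 was −0.13 with the probe set of highest SD. Over 106 named genes and 32 settings, 35 of 3392 values had the other sign. With that probe set they were Hsph1 0.17, Higd1a −0.01, Lox 0.07, Des −0.04, Tbx5 −0.15 and Atg5 −0.01. In run 2 only, they were Cbr3 −0.18, Slc48a1 −0.08, Pcna 0.02, Mvk 0.12, Plaur −0.28, Serpinf1 0.09, Des −0.03, Bambi 0.02, Fzd2 −0.04, Alx1 0.17, Psmb7 −0.01 and Wipi1 −0.08. Scan batch 2 only gave Procr 0.07 and Slc48a1 −0.01, array weights C2 0.11, the scan batch block Slc48a1 −0.04 and the run block Slc48a1 −0.03. Over the fits without 1 library, Slc48a1 ran from −0.05 to 0.15, Plaur from −0.11 to 0.56, Cd44 from −0.03 to 0.50, Gclm from −0.64 to 0.16, Procr from −0.50 to 0.24 and Srxn1 from −0.38 to 0.30, with the upper end without corneal flow 3 for the last 3. Run 2 only rests on 1 flow library per tissue, and its spread comes from static cornea alone. Outliers were not tested in groups of 3.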
